A study of Homo sapiens with 8 samples.

Results

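Insulin-like growth factor (IGF) signaling was followed through 10 transcripts in low and high glucose cultures of MDA-MB-157, a widely used cell line of ER-negative breast cancer. The 10 genes encode 6 IGF-binding proteins (IGFBP2 to IGFBP7), the receptors for IGF1 and for insulin (IGF1R and INSR) and the adaptors IRS1 and IRS2. They were taken by gene symbol from a table of 21059 genes, and all 10 symbols were found. After conditioning in low glucose, cells spent 48 hours without serum. Glucose was 5 mM in the 4 low glucose libraries and 25 mM in the 4 high glucose ones. All libraries come from this single cell line, and no library of an osmotic control was analysed here. The comparison asks how transcripts change when glucose is raised. The genes were picked with the difference between the glucose groups already known, so that difference is given here for each of them as a description, without a test.

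IGF1, IGF2 and insulin bind receptor tyrosine kinases on the cell surface, IGF1R and INSR, which phosphorylate IRS1 and IRS2. The adaptors in turn recruit PI3K and switch on AKT, which keeps FOXO transcription factors out of the nucleus, and a branch through GRB2 and SOS activates RAS and ERK. Secreted binding proteins hold IGFs outside the cell, where they can prolong the life of the ligand or keep it from the receptor, and proteases such as PAPPA release it again. Breast cancer cells are known to use this pathway for growth and survival, and IRS2 and INSR are textbook FOXO targets that are made when insulin signaling is low.

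Values are CPM, counts scaled to a common library size, in which the authors corrected library sizes by TMM, the trimmed mean of M values. The libraries held an estimated 9721649 to 12482542 reads, so that 3 reads corresponded to 0.212 to 0.267 CPM. High glucose replicate 1 stood apart from the other 3 high glucose libraries along transcript length. In it, genes with a transcript of over 8000 bases had a median 0.29 below the other 3 on the log2 scale (1044 genes), and genes under 3000 bases a median 0.17 above them (4776 genes). In the other 3 libraries these medians were between 0.07 and 0.16 for long and between -0.08 and -0.04 for short transcripts. All 4 receptor and adaptor transcripts are over 8000 bases long and 5 of the 6 binding protein transcripts under 3000, so values of the 10 genes are also given without that library where it moves them.

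In this comparison 9849 of 21059 genes passed an adjusted p of 0.05 (limma), 46.8% of the genes tested, and 44.5% had groups that did not overlap (20.9% higher and 23.6% lower at high glucose). Of the 10 genes, 5 had groups that did not overlap, 3 higher and 2 lower, and since they were picked on this contrast nothing is read from these counts. The mean was higher at high glucose for 4 of them (IGFBP3, IRS2, IRS1 and IGF1R) and lower for 6. The median log2 change was -0.15 over the 10 genes and -0.0092 over all genes. No filter on low values was applied. A mean over all 8 libraries of at least 5 CPM was reached by 9 of the 10 genes, and that of IGFBP5 was under 1 CPM.

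**Figure D1:**
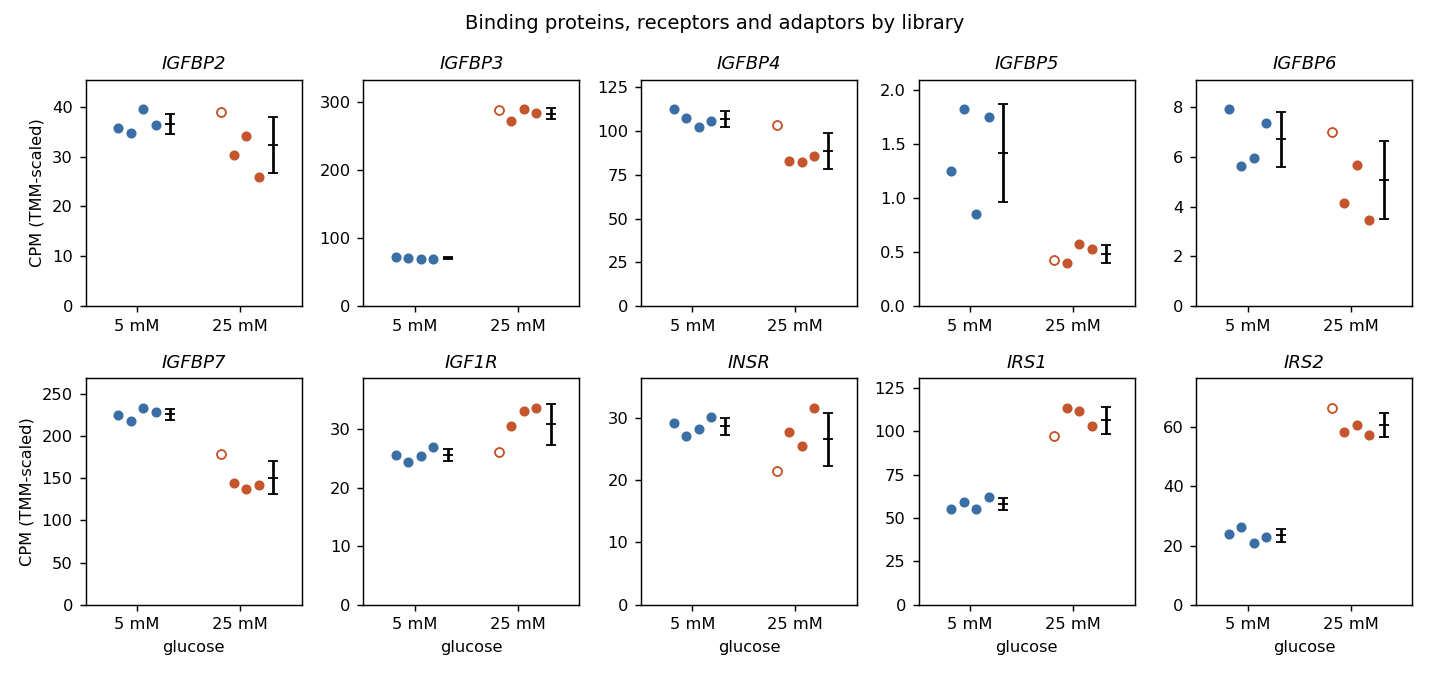
Each panel shows the TMM-scaled CPM of 1 gene in the 4 low glucose (5 mM, blue) and 4 high glucose (25 mM, red) libraries, with high glucose replicate 1 as an open circle and the mean ± SD as a black bar. IGFBP3, IRS1 and IRS2 lie higher in every high glucose library, IGFBP5 and IGFBP7 lower, and the open circle lies toward low glucose in 6 of 10 panels.

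IGFBP3 (ENSG00000146674.15, chromosome 7), the main IGF carrier of the circulation, differed most of the 10. It was at 72.4, 71.0, 69.8 and 69.9 CPM in low glucose replicates 1 to 4 and at 288, 271, 289 and 283 CPM in high glucose replicates 1 to 4. The lowest high glucose library was thus far above the highest low glucose library, and replicates differed little. Means were 70.8 ± 1.23 CPM (SD, n = 4) and 283 ± 8.13 CPM, which is 4.00 times higher at high glucose, a log2 change of 1.98 (SE 0.025) on the log2(CPM + 1) scale. It ranked 28 among all 21059 genes by log2 change, from the largest rise. High glucose replicate 1 lay among its fellow libraries, and without it the log2 change was also 1.98.

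IGFBP4 (ENSG00000141753.7, chromosome 17), a binding protein that mostly inhibits IGF action and is the main substrate of PAPPA, was lower at high glucose in most libraries. It was at 112, 107, 102 and 106 CPM at low glucose and at 103, 82.9, 82.3 and 85.6 CPM at high glucose. High glucose replicate 1 fell within the range of low glucose, while the other 3 lay below it. The log2 change was -0.27 (SE 0.076), and -0.35 without replicate 1.

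IGFBP2 (ENSG00000115457.10, chromosome 2), which carries an integrin-binding site besides the IGF-binding one, was at 35.8, 34.7, 39.5 and 36.3 CPM at low glucose. At high glucose it was at 39.0, 30.4, 34.1 and 25.9 CPM. The groups overlapped through replicate 1, and the log2 change of -0.19 had an SE of 0.12. Without that library the groups did not overlap and the change was -0.28.

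IGFBP6 (ENSG00000167779.9, chromosome 12), which prefers IGF2 over IGF1, was at 7.92, 5.63, 5.95 and 7.36 CPM at low glucose and at 6.99, 4.15, 5.69 and 3.47 CPM at high glucose. The groups overlapped with and without replicate 1, at log2 changes of -0.51 without it and -0.37 (SE 0.20) with it.

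IGFBP5 (ENSG00000115461.5, chromosome 2), a binding protein of the mammary gland that marks involution, was close to the limit of the depth. It was at 1.25, 1.82, 0.849 and 1.75 CPM at low glucose, which is 10 to 24 reads per library. At high glucose it was at 0.424, 0.399, 0.577 and 0.533 CPM, or 5 to 7 reads. The groups did not overlap, but counting error alone is large at this depth. The log2 change of -0.69 (SE 0.14) becomes -1.34 with a pseudocount of 0.1 in place of 1. Without high glucose replicate 1 it was -0.67.

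IGFBP7 (ENSG00000163453.11, chromosome 4), a related secreted protein with low affinity for IGFs, was the most abundant of the family at low glucose. It was at 225, 217, 233 and 228 CPM there and at 179, 145, 137 and 142 CPM at high glucose. All high glucose libraries were below all low glucose libraries, and replicate 1 was the nearest to them. Means were 226 ± 6.68 and 151 ± 19.3 CPM (SD, n = 4), a log2 change of -0.59 (SE 0.084), and -0.675 without replicate 1.

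Per 1000 bases of transcript, which allows levels of different genes to be compared, the order of the binding proteins changed. At low glucose IGFBP7 (158 ± 4.68 CPM per 1000 bases, SD, n = 4) was followed by IGFBP4 (48.4 ± 1.94), IGFBP3 (27.1 ± 0.471), IGFBP2 (25.9 ± 1.46), IGFBP6 (7.09 ± 1.16) and IGFBP5 (0.227 ± 0.073). Only the neighbors IGFBP3 and IGFBP2 overlapped among these. At high glucose IGFBP3 (108 ± 3.11) and IGFBP7 (106 ± 13.5) led with overlapping libraries, followed by IGFBP4 (40.2 ± 4.54), IGFBP2 (22.9 ± 3.96), IGFBP6 (5.36 ± 1.67) and IGFBP5 (0.077 ± 0.014).

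The summed level of IGFBP2 to IGFBP6, which bind IGFs with high affinity, was 113, 107, 107 and 108 CPM per 1000 bases at low glucose and 192, 167, 178 and 169 at high glucose. This sum was 1.63 times higher at high glucose, and of the 5 genes in it IGFBP3 alone had a higher mean there. IGFBP3 made up 24.9% ± 0.398 of the sum at low glucose and 61.4% ± 2.85 at high glucose (SD, n = 4). IGFBP4, the largest contributor at low glucose with 44.6% ± 1.14, made up 22.7% ± 1.43 at high glucose. With IGFBP7 included the sum was 267 ± 5.52 and 282 ± 23.8, and the libraries of the groups overlapped.

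**Figure D2:**
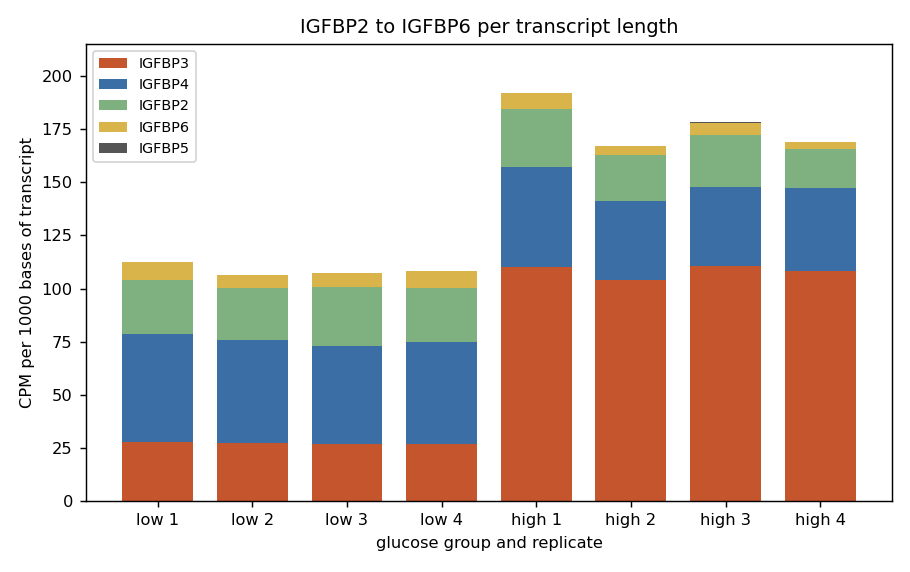
Stacked bars give the CPM per 1000 bases of transcript of IGFBP2 to IGFBP6 in each of the 8 libraries. The IGFBP3 segment grows from 24.9% of the bar on average at low glucose to 61.4% at high glucose, and the total is higher in all 4 high glucose libraries.

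IGF1R (ENSG00000140443.14, chromosome 15), the receptor for IGF1 and IGF2, was at 25.7, 24.4, 25.5 and 27.0 CPM at low glucose. At high glucose it was at 26.1, 30.5, 33.2 and 33.7 CPM. Replicate 1 lay among the low glucose libraries and the other 3 above all of them. The log2 change was 0.25 (SE 0.081), and 0.33 without replicate 1.

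INSR (ENSG00000171105.14, chromosome 19), the insulin receptor, was at 29.1, 27.0, 28.1 and 30.1 CPM at low glucose and at 21.4, 27.7, 25.5 and 31.6 CPM at high glucose. The groups overlapped, and high glucose libraries lay on both sides of the low glucose range. The log2 change of -0.12 (SE 0.11) was -0.02 without replicate 1.

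The IGF1R transcript was therefore higher relative to INSR at high glucose. Per length, their ratio was 0.683, 0.700, 0.701 and 0.693 at low glucose and 0.944, 0.854, 1.01 and 0.826 at high glucose. All high glucose libraries lay above all low glucose libraries, replicate 1 included, with means of 0.694 ± 0.0085 and 0.908 ± 0.083 (SD, n = 4). Both transcripts are long (12235 and 9463 bases), and after removal of the length trend the ratio was 1.33 times higher at high glucose, against 1.31 times without this step.

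IRS1 (ENSG00000169047.5, chromosome 2), the adaptor that links both receptors to PI3K, was at 55.3, 59.1, 55.1 and 62.3 CPM at low glucose. At high glucose it was at 97.1, 114, 112 and 103 CPM. Every high glucose library lay above every low glucose library, and replicate 1 was the lowest of its group. Means were 58.0 ± 3.41 and 106 ± 7.59 CPM (SD, n = 4), a log2 change of 0.86 (SE 0.062), and 0.91 without replicate 1.

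IRS2 (ENSG00000185950.9, chromosome 13), the adaptor tied more to metabolism and to the motility of breast cancer cells, was at 24.005, 26.2, 20.8 and 22.8 CPM at low glucose. At high glucose it was at 66.6, 58.5, 61.0 and 57.5 CPM. The groups lay far apart and replicate 1 was the highest of its group. Means were 23.4 ± 2.24 and 60.9 ± 4.06 CPM, 2.60 times higher at high glucose. The log2 change was 1.34 (SE 0.076), and 1.30 without replicate 1. Of its transcript 2.95% of the sampled 31-base words also occur in other genes, against at most 0.41% for the other 9 genes.

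Together IRS1 and IRS2 were at 8.81 ± 0.501 and 18.3 ± 0.603 CPM per 1000 bases, 2.08 times higher at high glucose, while the summed level of the receptors IGF1R and INSR was 5.11 ± 0.222 and 5.33 ± 0.698 and overlapped. At low glucose the order was IRS1 (5.93 ± 0.349 CPM per 1000 bases, SD, n = 4), INSR (3.02 ± 0.140), IRS2 (2.87 ± 0.275) and IGF1R (2.10 ± 0.0845), where INSR and IRS2 overlapped. At high glucose it was IRS1 (10.9 ± 0.777), IRS2 (7.46 ± 0.497), INSR (2.80 ± 0.448) and IGF1R (2.52 ± 0.283), where the receptors overlapped. IRS1 remained above IRS2 in every library. The IRS1 to IRS2 ratio was 1.92, 1.89, 2.21 and 2.28 at low glucose and 1.22, 1.62, 1.53 and 1.498 at high glucose, so that all high glucose libraries were lower, with replicate 1 lowest.

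**Figure D3:**
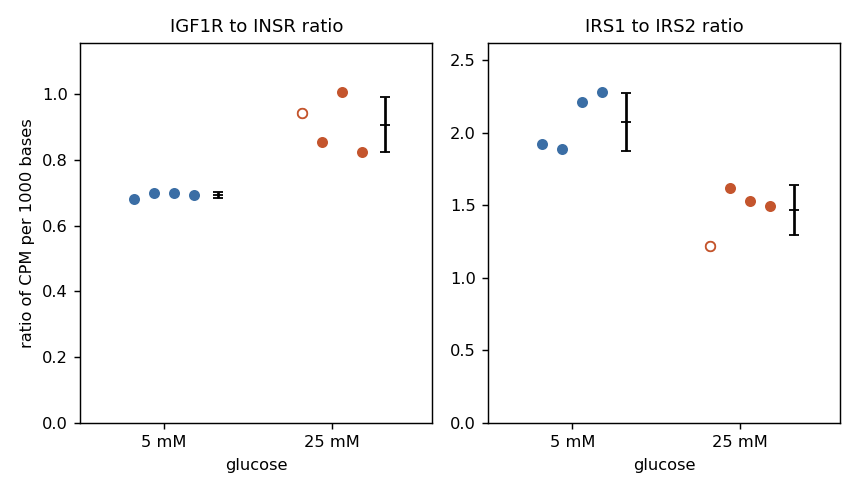
Points give the ratio of CPM per 1000 bases of IGF1R to INSR (left) and of IRS1 to IRS2 (right) in each library at 5 mM (blue) and 25 mM (red) glucose, with the mean ± SD in black and high glucose replicate 1 as an open circle. The groups do not overlap in either ratio: the first is higher at high glucose (0.908 against 0.694) and the second lower (1.47 against 2.08).

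High glucose replicate 1 bore on many of these values. It lay on the low glucose side of its 3 fellow libraries in 6 of 10 genes, was the highest high glucose library in 5 and the lowest in 3. Relative to the mean of the other 3 on the log2 scale it was 0.58 higher for IGFBP6, 0.37 for IGFBP2, 0.34 for IGFBP7 and 0.30 for IGFBP4, all short transcripts. It was 0.38 lower for INSR, 0.30 for IGF1R and 0.17 for IRS1, which are long, but 0.17 higher for IRS2, which is long too. IGFBP3 differed by 0.034. The part of transcript length in these differences was not tested. No gene changed its direction without this library, and without it the groups did not overlap in 8 of 10 genes.

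**Figure D4:**
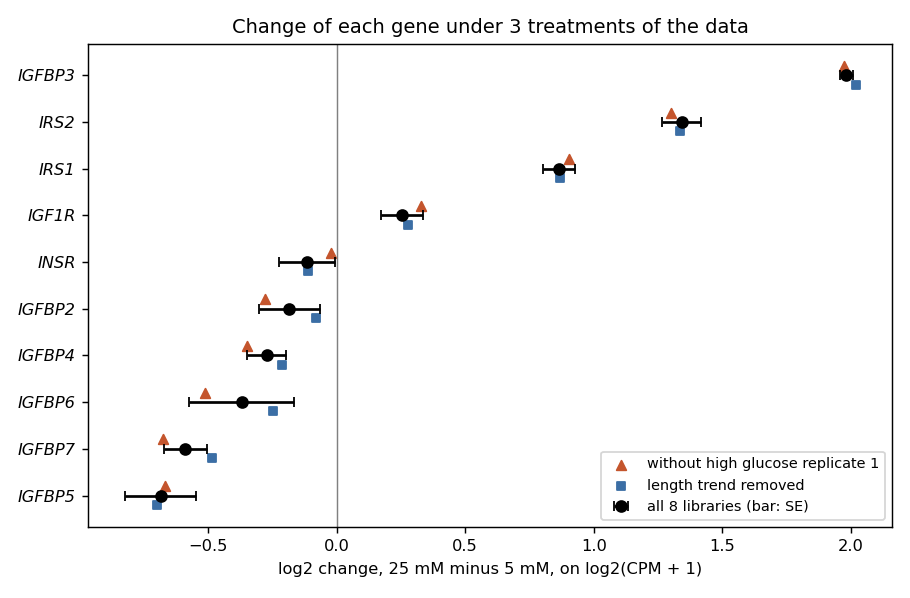
Log2 changes (25 mM minus 5 mM glucose, on log2(CPM + 1)) of the 10 genes are shown with all libraries (black, bar = SE), without high glucose replicate 1 (red triangles) and after removal of the length trend (blue squares). With all libraries the genes run from IGFBP3 at 1.98 to IGFBP5 at -0.69 with INSR nearest to 0, and every gene keeps its sign in all 3 versions.

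Exons of the 10 genes overlap few other genes. IGFBP7 shares exon positions with IGFBP7-AS1 and POLR2B on the other strand, IGFBP5 with DIRC3-AS1, and IRS2 with an unnamed antisense transcript. Since no source says whether strand was used in counting, reads of the paired genes cannot be told apart. IGFBP2 and IGFBP5 are neighbors that run toward each other on chromosome 2 (216632828 to 216664436 and 216672105 to 216695549, GRCh38.p14), with 7668 bases between them. IGFBP3 (chromosome 7, 45912245 to 45921272) has IGFBP1 as its neighbor at a distance of 18584 bases. IGFBP1, the binding protein of liver and decidua that insulin represses, was at 0 CPM in all 8 libraries, which allows up to 0.212 to 0.267 CPM at 3 reads.

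The 250 bases before the gene start are shown for IGFBP3, IRS1 and IRS2, since these were higher together. Sequences are from RefSeq on GRCh38.p14, read 5′ to 3′ on the strand of the gene, and capitals mark GC boxes (GGGCGG or CCGCCC), the sites of SP1-type factors. The windows are chr7:45921273-45921522 for IGFBP3, chr2:226799821-226800070 for IRS1 and chr13:109786584-109786833 for IRS2, all on the minus strand.
IGFBP3: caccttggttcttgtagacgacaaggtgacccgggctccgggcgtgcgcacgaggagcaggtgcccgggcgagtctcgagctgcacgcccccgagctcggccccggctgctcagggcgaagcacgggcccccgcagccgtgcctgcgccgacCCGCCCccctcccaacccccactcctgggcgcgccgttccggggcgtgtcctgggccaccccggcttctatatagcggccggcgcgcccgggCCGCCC
IRS1: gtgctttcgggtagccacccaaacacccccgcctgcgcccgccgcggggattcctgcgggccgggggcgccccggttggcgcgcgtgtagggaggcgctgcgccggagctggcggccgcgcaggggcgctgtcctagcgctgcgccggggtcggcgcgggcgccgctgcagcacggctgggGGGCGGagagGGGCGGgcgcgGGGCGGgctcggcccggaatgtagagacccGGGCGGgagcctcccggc
IRS2: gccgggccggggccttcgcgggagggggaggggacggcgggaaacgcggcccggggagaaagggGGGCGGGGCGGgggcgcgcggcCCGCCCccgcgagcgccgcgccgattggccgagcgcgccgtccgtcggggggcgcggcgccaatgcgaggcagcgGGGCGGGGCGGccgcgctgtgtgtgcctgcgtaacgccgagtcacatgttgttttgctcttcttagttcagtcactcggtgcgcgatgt

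These windows are rich in G and C (76.0%, 80.8% and 76.4%), with 2, 4 and 5 GC boxes, overlapping copies counted separately. Of the 10 genes 9 had a RefSeq promoter entry, IGFBP7 had none, and 9 of their 11 entries (81.8%) held a GC box, against 42.6% of 35116 entries over all genes. The E-box CACGTG, the core of the paired site through which MondoA and ChREBP respond to glucose, was in none of the 11 entries of these 9 genes, and in 6.34% of all entries. The FOXO motif TGTTTAC (or GTAAACA) was in the entry of IGFBP6 only (2.98% of all entries), TATAAA (or TTTATA) in that of IGFBP4 only (10.7%), and the AP-1 motif TGANTCA in none (6.57%). Motifs were searched on both strands, and a missing match says only that these letters are not in this window.

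The genes whose levels most resembled IGFBP3 and IGFBP5, with the largest positive and negative log2 change, were sought among 11288 genes of at least 5 CPM by Pearson correlation of log2(CPM + 1) over the 8 libraries. Since the libraries form 2 groups, high values mainly reflect a shared difference between the groups. For IGFBP3 they were CAVIN1 (r = 0.9998, from 251 ± 4.42 to 568 ± 11.6 CPM), a coat protein of caveolae, CCN3 (r = 0.9998, from 108 ± 1.46 to 302 ± 8.56 CPM), a secreted matricellular protein, and DAZAP2 (r = 0.9996). For IGFBP5 they were KIAA0753 (r = 0.9783), CEP131 (r = 0.9776) and CYTH2 (r = 0.9671). IGFBP5 had only 5 to 24 reads per library, so counting error enters its pattern. The genes named are also the highest of 11288 correlations, and such a search alone can give high values. Neither part was tested.

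The other genes of insulin and IGF signaling place these values in their pathway. Of 97 such genes in the table, 38 rose and 19 fell at an adjusted p under 0.05 (limma, adjusted over all 21059 genes), 58.8% against 46.8% of all genes tested. Over all genes 22.0% rose and 24.8% fell. The share over all genes counts many that are at or near 0. In a separate fit of genes with a mean of at least 5 CPM, 71.9% of all genes and 71.2% of 80 pathway genes passed in either direction. By direction the shares were less alike. Of all genes 35.8% rose and 36.1% fell, against 47.5% (38) and 23.8% (19) of the 80. This difference was not tested. With the length trend removed, 5552 of all genes rose and 5085 fell. The median log2 change of the 97 genes was 0.09, against -0.0092 over all genes. Without high glucose replicate 1, 42 rose and 20 fell: 8 pathway genes passed only without that library and 3 only with it.

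**Figure D5:**
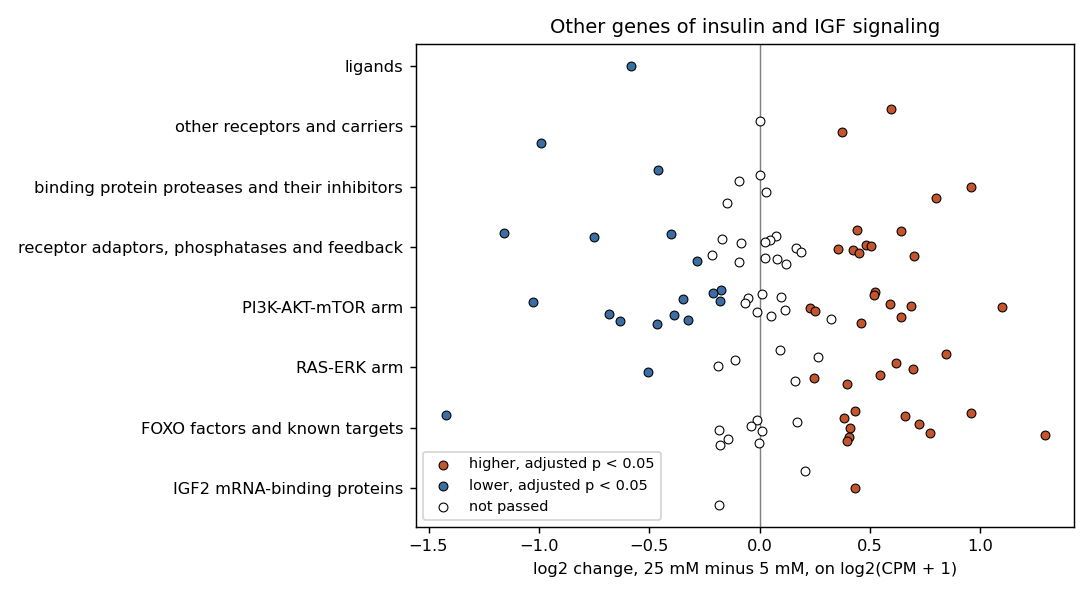
Each point is the log2 change (25 mM minus 5 mM glucose, on log2(CPM + 1)) of 1 of 97 other pathway genes, arranged by role and colored red where it rose, blue where it fell and white where it did not pass an adjusted p of 0.05 (limma). The PI3K-AKT-mTOR genes spread to both sides (9 rose and 10 fell), while 10 of 19 FOXO factors and targets rose and 1 fell. In these roles 70.4% and 57.9% passed, against 46.8% of all genes (22.0% rose and 24.8% fell). The 71.9% of genes with a mean of at least 5 CPM comes from a separate fit. It is not directly comparable, since both roles also count genes below that mean.

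Among ligands, IGF2 (ENSG00000167244.20) was low. It was at 3.77, 5.96, 5.25 and 3.90 CPM at low glucose and at 2.57, 3.63, 3.23 and 1.89 CPM at high glucose, groups that lay close without overlap. It fell by 0.58 on the log2 scale (limma, adjusted p = 0.0412). The call was lost without any 1 of 6 libraries, low glucose replicates 2, 3 and 4 and high glucose replicates 1, 3 and 4, with adjusted p from 0.0503 to 0.0986, and after quantile normalization (adjusted p = 0.116). Its exons overlap IGF2-AS and the readthrough gene INS-IGF2. The symbols IGF1 and INS were not found among the 21059 genes, so neither was analysed here.

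Among other receptors and carriers, IGF2R, which takes IGF2 to the lysosome and does not signal as a kinase, rose. It was at 329, 352, 347 and 337 CPM at low and 426, 538, 553 and 558 CPM at high glucose, with a log2 change of 0.60 (limma, adjusted p = 0.00127). Replicate 1 was again nearest to low glucose, and an exon overlaps the pseudogene CHP1P2. IGFBPL1, a relative of the binding proteins, rose from 4.58 ± 0.587 to 6.19 ± 0.288 CPM (SD, n = 4), a log2 change of 0.37 (limma, adjusted p = 0.0109). The insulin receptor-related receptor INSRR, named after its values were seen because it was the 1 gene of this role that fell, was at 1.58 ± 0.207 and 0.301 ± 0.143 CPM (limma, adjusted p = 1.18e-04). Its high glucose values, 0.178 to 0.495 CPM, lay close to the value of 3 reads (0.212 to 0.267 CPM), near the limit of the depth. Its exons share positions with a gene on the other strand.

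Of 7 binding protein proteases and inhibitors of such proteases, 2 rose and 1 fell, 42.9% against 46.8% of all genes. PAPPA, the protease that cuts IGFBP4, was at 7.38, 7.87, 5.79 and 4.66 CPM at low and 8.32, 14.3, 14.6 and 17.1 CPM at high glucose. It rose with a log2 change of 0.96 (limma, adjusted p = 0.0140, and 0.0605 with the replicate number as a block), and high glucose replicate 1 lay only slightly above the low glucose libraries. STC1, a secreted inhibitor of PAPPA, rose too, from 1.44 ± 0.404 to 3.23 ± 0.489 CPM (SD, n = 4), a log2 change of 0.80 (limma, adjusted p = 0.00229). ADAM12, a metalloprotease that can cut IGFBP3 and IGFBP5, fell from 35.3 ± 1.91 to 25.5 ± 3.11 CPM, a log2 change of -0.46 (limma, adjusted p = 0.00466). The other 4 genes did not pass with all libraries. Without high glucose replicate 1, HTRA1, a secreted serine protease, passed as lower, with a log2 change of -0.16 (limma, adjusted p = 0.0472, against 0.330 with all libraries).

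Of 24 further adaptors, phosphatases and feedback genes, 8 rose and 4 fell. Thus 50% passed, against 46.8% of all genes. The 71.9% of genes with a mean of at least 5 CPM comes from a separate fit. It is not directly comparable, since this role also counts genes below that mean. PTPN1, the phosphatase that dephosphorylates the insulin receptor, rose from 145 ± 2.52 to 194 ± 4.36 CPM (log2 change 0.42, limma, adjusted p = 8.91e-06). CAV1, the main protein of caveolae, where insulin receptors gather, rose from 322 ± 4.51 to 437 ± 18.01 CPM (log2 change 0.44). DOK1, an adaptor that damps receptor signaling, fell from 19.7 ± 1.55 to 8.31 ± 1.11 CPM (log2 change -1.16), and overlaps LOXL3 on the other strand.

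In the PI3K-AKT-mTOR arm 9 of 27 genes rose and 10 fell. Thus 70.4% passed, against 46.8% of all genes. In a separate fit of genes with a mean of at least 5 CPM, 71.9% passed. That share is not directly comparable, since the arm includes INPP5D, which lies below that mean. RHEB, the GTPase that activates mTORC1, rose from 64.7 ± 2.46 to 102 ± 4.84 CPM (log2 change 0.64), PHLPP2, a phosphatase that inactivates AKT, from 36.9 ± 1.002 to 80.3 ± 9.19 CPM (log2 change 1.10), and PDPK1, the kinase that activates AKT, from 55.6 ± 3.18 to 84.2 ± 4.91 CPM (log2 change 0.59). These include a brake as well as activators of the arm.

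In the RAS-ERK arm 6 of 12 genes rose and 1 fell. Thus 58.3% passed, against 46.8% of all genes. The 71.9% of genes with a mean of at least 5 CPM comes from a separate fit, so it is not directly comparable. NRAS, a RAS GTPase, was at 76.7, 76.7, 76.0 and 75.8 CPM at low and 115, 104, 114 and 115 CPM at high glucose. All high glucose libraries lay above all low glucose libraries, with replicate 2 the lowest of its group, and the log2 change was 0.55 (limma, adjusted p = 2.04e-05).

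IRS2 and INSR also belong by function to the FOXO targets, and INSR had no higher mean at high glucose (log2 change -0.12). Among 19 other FOXO factors and known FOXO targets, 10 rose, 1 fell and 8 did not pass. Over all genes 22.0% rose and 24.8% fell. The median log2 change of the 19 genes was 0.38, against -0.0092 over all genes. Thus 57.9% passed, against 46.8% of all genes. The 71.9% of genes with a mean of at least 5 CPM comes from a separate fit. It is not directly comparable, since some genes of this role lie below that mean. CCNG2, an atypical cyclin linked to arrest, rose from 78.1 ± 1.80 to 124 ± 3.48 CPM (log2 change 0.66), and BCL6, a transcriptional repressor, from 18.6 ± 0.849 to 37 ± 3.25 CPM (log2 change 0.96). CAT, which encodes catalase, was the 1 that fell, from 57.2 ± 0.672 to 20.8 ± 1.496 CPM (log2 change -1.42, limma, adjusted p = 2.00e-06). Of the 3 IGF2 mRNA-binding proteins, IGF2BP2 rose from 48.7 ± 2.51 to 66.2 ± 6.12 CPM (log2 change 0.43), and the other 2 did not pass with all libraries. Without high glucose replicate 1, IGF2BP1 passed too, with a log2 change of 0.28 (limma, adjusted p = 0.00568, against 0.0982 with all libraries). PHLPP2, PDPK1, PTPN1, BCL6 and PAPPA share exon positions with genes on the other strand.

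The label of the cells was checked by markers. ESR1, the estrogen receptor, was at 0 to 0.170 CPM in the low and 0 to 0.0889 CPM in the high glucose libraries, under the value of 3 reads, while the 6 mesenchymal markers summed to 8016 to 8168 CPM at low and 5645 to 6033 CPM at high glucose. VIM, FN1 and SNAI2 were lower in every high glucose library, while ZEB1, CDH2 and AXL were higher in every one. Leukocyte markers in the table (3 of 5) summed to 10.7 to 14.3 and 13.3 to 17.97 CPM, mostly CD68, with PTPRC at 0 to 0.178 CPM over all 8 libraries. CD14 was higher in every high glucose library (0.801 to 1.58 CPM at low and 2.76 to 5.79 CPM at high glucose), while CD68 overlapped. The 8 luminal markers summed to 366 to 381 and 248 to 312 CPM, mostly KRT8 and KRT18. KRT8, KRT18 and FOXA1 were lower in every high glucose library, EPCAM and GATA3 were higher in every one, and PGR, CDH1 and ESR1 overlapped. PGR was at 4.33 to 5.18 CPM at low and 4.80 to 5.95 CPM at high glucose. Endothelial markers (4 of 4) summed to 3.65 to 4.17 and 4.07 to 5.42 CPM, those of adipocytes (1 of 3) to at most 0.825 CPM and those of red cells (1 of 3) to at most 1.41 CPM. Their part in the results was not tested. In bulk RNA, fewer cells of a kind and less RNA per cell cannot be told apart.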

How the data were processed

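RNA sequencing of 8 libraries of MDA-MB-157 cells was used. The deposited values are CPM, which the authors scaled with TMM factors in edgeR. The submitters' notes name the build hg38, the study's methods name hg19, and the counting tool and its use of strand are not given in the sources used here. Of 21077 lines, 18 identical copies of Y-linked pseudoautosomal genes were left out, and no gene was filtered. Of values under 200 reads, 72.0% to 73.3% per library lay within 0.002 of a whole read, so no count test was run.

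Log2(CPM + 1) values were compared with limma 3.58.1 in R 4.3.3 (mean-variance trend, 2-sided, Benjamini-Hochberg over 21059 genes). The fit was also run on simulated data with the same spread setting for all genes and no deviating library. That run checks the code and does not vouch for the calls in these libraries. Whether replicates came from separate cultures is not stated, so p-values measure the spread between these samples. The 10 genes and all lists were chosen with earlier results of these data known. The 10 genes were part of the fit over all genes, but no p-value is given for them. All 10 genes and the ligands were named, with at most 3 genes per other pathway role (smallest adjusted p, mean of at least 1 CPM) and 3 genes most like the largest rise and fall. Some genes that this rule names are not reported here. Levels between genes are per 1000 bases of the GENCODE 44 canonical transcript. Alternatives were the pseudocount, low-value filters, scaling, the variance trend, a replicate block, the length trend and each library left out.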

Additional observations from a re-analysis of the deposited data

Results flagged for a closer look

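Among 66 groups of 4 libraries, 4 held a library far from the other 3 by Dixon's test at the 5% level, where chance gives about 3.3. All 4 were at high glucose and 3 were replicate 1. IGFBP4 was at 103.4 CPM in high glucose replicate 1, against 82.3 to 85.6 CPM in the other 3. IGF2R was at 426.1 CPM in replicate 1, against 538 to 558 CPM. RHEB was at 108.7 CPM in replicate 1, against 98.6 to 99.8 CPM. NRAS was at 104 CPM in high glucose replicate 2, against 114 to 115 CPM.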

How the results depend on the processing

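The 4 higher and 6 lower genes kept their direction under every alternative that kept them, and IGFBP5 had no value under the low-value filters. The number of genes called over the whole table was 9849 and ranged from 8899 to 10156 when 1 library was left out, and that of pathway genes, 57, from 51 to 62. The summed level of IGFBP2 to IGFBP6 was 1.63 times higher at high glucose and 1.55 times (1.548) after quantile normalization. Deviations of same-numbered libraries correlated at 0.0692, -0.0280, 0.0136 and -0.0403. These values show no pairing by replicate number but cannot settle whether samples were paired, which the labels do not state. With the replicate number as a block 8921 genes were called, 51 of them pathway genes, and PAPPA did not pass (adjusted p = 0.0605). The IGF2 call was lost without any 1 of 6 libraries and after quantile normalization, and the cause was not tested. Over all genes 4636 rose and 5213 fell, against 4892 and 4866 with median-of-ratios scaling, 5552 and 5085 with the length trend removed, and 4043 and 4077 at a minimum of 5 CPM. Depth limits IGFBP5, with 5 to 24 reads per library, and INSRR at high glucose.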
